A study of Mus musculus with 7 samples.

Results

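The genes described here pattern the midbrain-hindbrain boundary of the embryo: *Otx2*, *Gbx2*, *En1*, *En2*, *Pax2*, *Pax5*, *Pax8*, *Fgf8*, *Wnt1* and *Lmx1b*. They were chosen by gene symbol, and are 10 of the 52636 genes in the count files. In the embryo the boundary, also called the isthmus, is a signalling centre that divides and patterns the midbrain and the anterior hindbrain. It forms where the *Otx2* domain on the midbrain side meets the *Gbx2* domain on the hindbrain side, it secretes FGF8 and WNT1, and the Engrailed, Pax and Lmx1b transcription factors keep it active. Several of these genes are also used after birth by particular neurons, such as *Lmx1b* in serotonergic neurons and *En1* in dopaminergic neurons.

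Gene counts came from poly(A) RNA-seq of dorsal midbrain from 7 mice, with 1 library per mouse, and the question was how loss of the transcription factor Brn3b (gene *Pou4f2*) alters the tissue. The 3 control mice, heterozygote in the labels, were *Brn3b* flox/+ with En1-Cre, so that 1 wild-type allele remained after recombination: A2 and A6 were taken at postnatal day 4 (P4) and A4 at P3. The 4 conditional knockout (cKO) mice, homozygote in the labels, were *Brn3b* flox/- with En1-Cre, their second allele being null: the P4 animals among them were B1 and B8, and the P2 animals were B7 and B9. All 7 mice had 1 copy of En1-Cre, which is active in midbrain and hindbrain, and 1 copy of the floxed allele, which expresses human placental alkaline phosphatase in place of *Brn3b* after recombination. Animals of both sexes were used in the study, but the sex of each of these mice, and whether the Cre insertion disrupts a copy of *En1* itself, are not given in the sources used here. Since P2 mice were all cKO and the P3 mouse was a control, age and genotype cannot be told apart for those 3 mice.

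Counts on genes ranged from 23588248 (A2) to 87572085 (B9) per library. The labels passed the check of the targeted gene: *Pou4f2* was at 45.8 to 47.4 CPM (counts made comparable across libraries of unequal depth) in controls and at 9.65 to 11.6 CPM in cKO mice (log2 fold change -2.16 ± 0.13 SE). It was the 1 gene of 21817 tested that edgeR's quasi-likelihood test called at an adjusted p under 0.05 (0.00458% of genes), whereas DESeq2 called 1994 of the 19092 genes to which it gave an adjusted p (10.4%). All 8 dorsal midbrain markers were detected, among them *Tfap2b* at 520 to 944 CPM. Of the hindbrain markers, the 7 Hox genes summed to at most 0.212 CPM in any mouse, with 3 of them at 0 in all 7, and of the 8 cerebellar markers *Atoh1* and *Gabra6* stayed at or below 0.0730 and 0.0310 CPM. The other 6 cerebellar markers were detected in every mouse, among them *Zic1* at 112 to 198 CPM and *Barhl1* at 57.0 to 96.2 CPM, and the list summed to 279 to 337 CPM in controls and 257 to 344 CPM in cKO. How much anterior hindbrain tissue the dissections held was not tested.

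Of the 10 members 8 passed the filter on low counts and were tested, and *Fgf8* and *Gbx2* did not pass it. By edgeR none of the 8 tested members was called, against 1 gene (0.00458%) of all tested. DESeq2 gave *Pax2* no adjusted p, and of the other tested members it called 1, *Pax5*, higher in cKO (adjusted p = 0.00579). Of all genes with an adjusted p by DESeq2, 7.41% were called higher. The fitted log2 fold change was above 0 for 6 of the 8 and below 0 for *Wnt1* and *Otx2*, and its median was 0.62, against 0.0025 over all genes tested. At an unadjusted p under 0.05 edgeR held *En1*, *En2* and *Pax5*, 3 of 8, while 30.4% of all tested genes had such a p and 16.7% had it with a higher level in cKO. The control and cKO mice did not overlap for *Pax5* only, 1 of 8, against 14% of all tested genes in either direction and 6.03% with cKO higher.

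**Figure D1:**
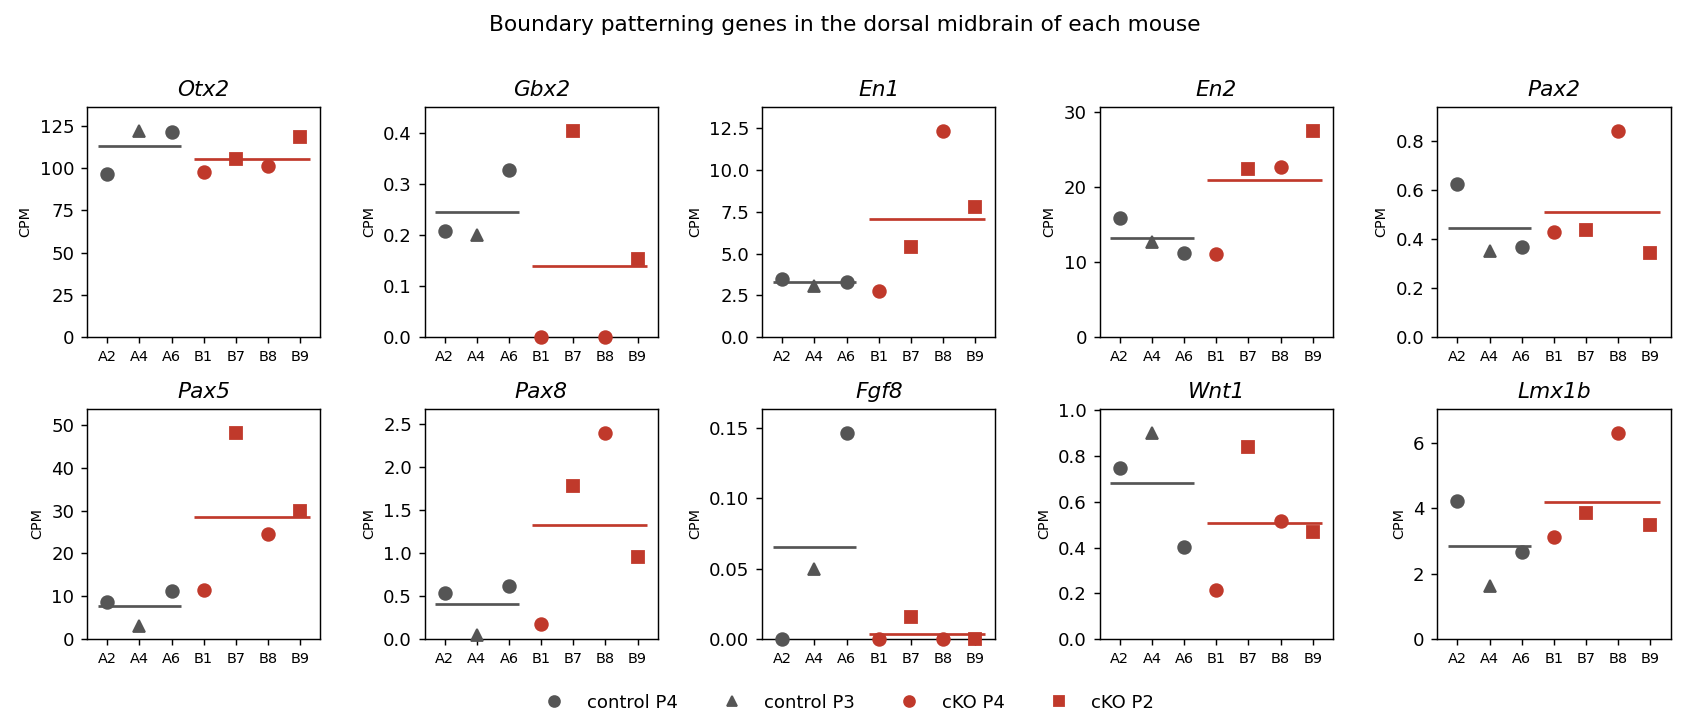
CPM (y axis, linear, from 0, a separate scale per gene) of the 10 boundary genes in each mouse (x axis), with a horizontal line at the mean of the 3 controls (grey) and of the 4 cKO mice (red) and a marker shape for age. For En1, En2, Pax5 and Pax8 the cKO mice B7, B8 and B9 lie above the controls while B1 lies near them, and for Otx2 the mice of both genotypes are mixed.

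**Figure D2:**
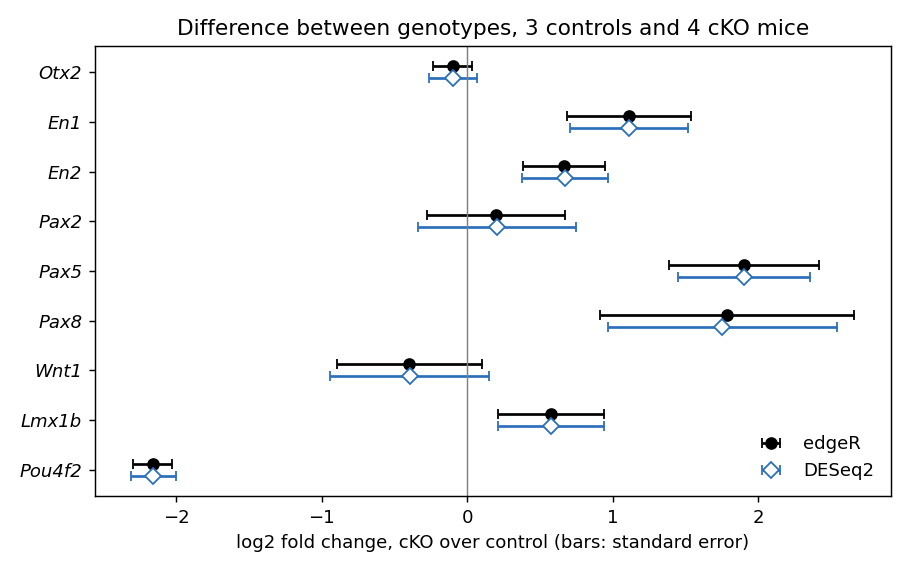
Log2 fold change of cKO over control (x axis) for the 8 tested members and the targeted gene Pou4f2 (y axis), from edgeR (black circles) and DESeq2 (blue diamonds), with bars of 1 standard error. Pax5 and Pax8 have the highest estimates, at 1.90 and 1.79 by edgeR, and Otx2 lies next to 0 with the smallest error of the 8 members.

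*Otx2* encodes the homeodomain factor that sets forebrain and midbrain identity and fixes the boundary's anterior side (GRCm38, chr14:48657677-48673819, minus strand). Its level was 96.3, 122 and 121 CPM in controls A2, A4 and A6, and 97.4, 105, 101 and 118 CPM in cKO mice B1, B7, B8 and B9. The lowest and the highest mouse were both controls, and all 4 cKO mice fell between them. Its log2 fold change was -0.10 ± 0.14 SE (edgeR adjusted p = 0.625), and over all settings it stayed between -0.21 and -0.04 with no call. With 34189 reads in all, *Otx2* was the most deeply counted member, so its small spread was measured with little counting error.

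The antisense gene *Otx2os1*, a long noncoding RNA transcribed from the opposite strand (chr14:48668708-48870683), overlaps exons of *Otx2* and behaved otherwise. It was at 6.93, 8.12 and 7.998 CPM in controls A2, A4 and A6, and at 3.74, 2.87, 6.40 and 2.90 CPM in B1, B7, B8 and B9. Every cKO mouse lay below every control (8.01% of tested genes do so), with B8 the nearest to the control range. Its log2 fold change was -0.96 ± 0.29 SE, not called by edgeR (adjusted p = 0.138) and called by DESeq2 (adjusted p = 0.0356). Libraries were strand-specific, but the strand setting of the counting is not given in the sources used here, so reads of 2 overlapping genes on opposite strands may not have been told apart.

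*Gbx2*, the homeobox gene of the hindbrain side (chr1:89927956-89931179, minus strand), was near the limit of detection. Controls A2, A4 and A6 had 5, 8 and 9 reads (0.207, 0.1999 and 0.329 CPM), and B1, B7, B8 and B9 had 0, 26, 0 and 13 reads (0, 0.404, 0 and 0.153 CPM). The cKO mice therefore held both the highest value, in B7, and the 2 zeros, which allow up to 0.107 CPM in B1 and 0.0739 CPM in B8 (3 counts, counting error only). Both cKO mice with reads were P2 and both without were P4, while both P4 controls had reads. B7 and B9 were also the deepest libraries (67792192 and 87572085 counts on genes), so age and depth cannot be told apart here. No difference between genotypes was detectable at this depth.

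RefSeq promoter windows, from 250 bases before to 50 bases after a start, were at hand for 8 of the 10 members (13 windows, GRCm38.p6), and each was searched on both strands for 19 short motifs. *Otx2* had the 1 member window with ATAATTAAT, a form of the POU4F (Brn3) binding motif that also contains TAATTA and TAAT. Of all 32851 windows 0.274% held ATAATTAAT, 5.29% TAATTA, 7.06% TAATCC, an OTX motif that 1 *Otx2* window held too, and 58% TAAT. The other 15 motifs, with the share of all windows that held each, were ATTAAT (4.75%), CATTAAT (1.96%), TAATTAAT (0.852%), ACAAAG (18.7%), CTTTGA (16%), TGACC (40.5%), GCGTGAC (2.09%), TTTGAT (11.9%), GATAA (25.4%), CAATTA (8%), TATAAA (13.6%), GCGGAAG (5.77%), ATGCAAAT (1.74%), CGTGAC (8.22%) and GTCACGC (2.09%). Several overlap: ATTAAT is part of CATTAAT, of TAATTAAT and of ATAATTAAT, CGTGAC is part of GCGTGAC, and GTCACGC is GCGTGAC on the other strand. The match below was singled out after all hits had been seen, so it is shown as a letter match and not as a site. It starts 175 bases before a RefSeq start of *Otx2* (chr14:48665266-48665294, minus strand), within exon sequence of other *Otx2* transcripts, and its capitals mark the motif.
Otx2: aacatttattATAATTAATtctcggacga

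The Engrailed genes encode homeodomain repressors that act with *Pax2*, *Wnt1* and *Fgf8* at the boundary and later grade the tectum from anterior to posterior. *En1* (chr1:120602418-120607992, plus strand) is also the gene whose regulatory sequence drives the Cre in every mouse. It was at 3.48, 3.05 and 3.32 CPM in controls A2, A4 and A6, and at 2.78, 5.39, 12.3 and 7.78 CPM in B1, B7, B8 and B9. The controls lay within 0.437 CPM of each other, B1 lay just below them, and the other 3 cKO mice lay at 1.62, 3.71 and 2.34 times the median control. Controls averaged 3.29 ± 0.221 CPM (SD, n = 3), and the cKO mice averaged 7.07 ± 4.05 CPM (SD, n = 4). The log2 fold change of 1.11 ± 0.43 SE was not called by edgeR (unadjusted p = 0.0271, adjusted p = 0.140) or by DESeq2 (adjusted p = 0.0539). Without B8 the estimate was 0.71 ± 0.31 SE (edgeR adjusted p = 0.0779). An exact permutation test over the 35 splits of 7 mice gave a two-sided p of 0.229, where the smallest possible is 0.0571. In bulk tissue, more cells that express a gene and more of its RNA per cell cannot be told apart, which holds for every member.

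*En2* (chr5:28165694-28172166, plus strand) had the same high mice. Controls A2, A4 and A6 had 15.8, 12.6 and 11.2 CPM, and B1, B7, B8 and B9 had 11.1, 22.4, 22.7 and 27.4 CPM. B1 again lay just below the lowest control, and the other 3 cKO mice lay above the highest. Its log2 fold change of 0.67 ± 0.28 SE was not called by edgeR (unadjusted p = 0.0404, adjusted p = 0.152) or DESeq2 (adjusted p = 0.0932), and the exact permutation test gave a two-sided p of 0.229. *En2* was called by limma-voom with sample weights (0.67, adjusted p = 0.0378, in a fit that called 48.5% of all genes), where *En1* was not (0.73, adjusted p = 0.0577). With single mice left out, DESeq2 called *En1* without B1 and *En2* without B1 or without B8, in fits that called 0.689% (without B1) and 39.9% (without B8) of all genes. Against the controls, the 2 P2 cKO mice alone gave log2 fold changes of 0.99 for *En1* (adjusted p = 0.00477) and 0.90 for *En2* (adjusted p = 0.00131), in a fit that called 46.9% of all genes. The 2 P4 cKO mice alone gave 1.22 and 0.37, neither called by edgeR (adjusted p = 0.667 and 0.678), in a fit that called 0.00476% of all genes.

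*Cnpy1*, which encodes a modulator of FGF signalling and was listed here with the FGF8 pathway, lies 28.7 kb from *En2* on the opposite strand (chr5:28200819-28245806). Its levels were 18.3, 11.2 and 13.1 CPM in A2, A4 and A6, and 12.04, 19.7, 24.7 and 35.4 CPM in B1, B7, B8 and B9. As with *En2*, the cKO mice B7, B8 and B9 were above every control, and B1 lay within the control range. Of 13971 protein-coding genes at 1 CPM or more, *Cnpy1* had the pattern over the 7 mice nearest to that of *En2*, with a root mean square difference of 0.192 on the log2 scale after each gene was centred on its mean, and *Naalad2* came next at 0.211. The gene nearest to *En1* by this measure was *En2*, at 0.403, followed by *Cnpy1* at 0.407. These are descriptions over 7 libraries that differ in depth, age and genotype together.

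The 181 bases of the RefSeq window that precede both the RefSeq and the GENCODE start of *En1* are given because *En1* and *Pax5* were high in the same mice (chr1:120602237-120602417, plus strand). They hold 15 CpG pairs, 55.2% G and C, and no TAAT, the core that homeodomain factors bind, which would stand in capitals. The full *En1* window, which runs on past the RefSeq start, did hold TAAT when both strands were searched. TAAT was found in 8 of the 13 member windows and in 58% of all windows.
En1: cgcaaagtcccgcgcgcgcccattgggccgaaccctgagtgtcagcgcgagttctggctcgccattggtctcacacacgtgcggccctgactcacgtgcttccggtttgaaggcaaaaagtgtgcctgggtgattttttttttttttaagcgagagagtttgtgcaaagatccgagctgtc
For *Pax5* the 250 bases before the start are given (chr4:44710695-44710944, minus strand). They hold 19 CpG pairs, 58.8% G and C, and 1 TAAT, in capitals.
Pax5: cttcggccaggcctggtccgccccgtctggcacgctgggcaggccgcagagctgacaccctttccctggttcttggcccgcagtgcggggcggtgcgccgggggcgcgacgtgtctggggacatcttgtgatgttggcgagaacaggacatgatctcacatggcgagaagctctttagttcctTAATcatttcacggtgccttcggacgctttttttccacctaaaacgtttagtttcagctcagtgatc

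The paired-box factors Pax2, Pax5 and Pax8 share a DNA-binding domain, and at the boundary *Pax2* is the earliest of them to be expressed. *Pax5* (chr4:44524757-44710487, minus strand) was at 8.63, 3.17 and 11.3 CPM in controls A2, A4 and A6, and at 11.6, 48.0, 24.5 and 30.0 CPM in B1, B7, B8 and B9. Every cKO mouse lay above every control, but B1 exceeded control A6 by only 0.291 CPM, while the other 3 cKO mice were 2.84 to 5.56 times the median control. Controls averaged 7.70 ± 4.14 CPM (SD, n = 3), against 28.5 ± 15.1 CPM (SD, n = 4) for the cKO mice.

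The log2 fold change of *Pax5* was 1.90 ± 0.52 SE, with an edgeR adjusted p of 0.138 (unadjusted p = 0.00447) and a DESeq2 adjusted p of 0.00579. The exact permutation test gave the smallest two-sided p that 3 against 4 mice allow, 0.0571. This p follows from the groups not overlapping, which held for 14% of all tested genes, and adds nothing to it. *Pax5* was also called against the P2 cKO mice alone (2.34, edgeR adjusted p = 5.67e-04), by edgeR without B8 (1.98, adjusted p = 0.00442) and by limma-voom with sample weights (1.82, adjusted p = 0.00630), settings that called 46.9%, 46.7% and 48.5% of all genes. In P4 mice alone, 2 against 2, the estimate was 0.86 ± 0.37 SE, and with age as a covariate it was 1.54 ± 0.57 SE, neither called by edgeR (adjusted p = 0.989 and 0.272), in fits that called 0% and 0.00458% of all genes. By DESeq2 the call was lost when A4, B7 or B9 was left out, fits that called 0.0612%, 0.362% and 0.29% of all genes.

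Of the 3 annotated genes that lie within *Pax5* on the opposite strand, 1, 5730488B01Rik (chr4:44702800-44705110), had the pattern of its host. It had 0.124, 0.0999 and 0.110 CPM in A2, A4 and A6, and 0.142, 1.10, 0.443 and 0.576 CPM in B1, B7, B8 and B9. As with *Pax5*, all cKO mice were above all controls and B1 was the nearest to them, at 4 reads against 3, 4 and 3. Its log2 fold change was 2.37 ± 0.71 SE (edgeR adjusted p = 0.138). The other two, *Gm12462* and 4930517J16Rik, had log2 fold changes of 0.76 and 0.80 (edgeR adjusted p = 0.184 and 0.219), with B1 among their highest mice. 5730488B01Rik and *Gm12462* overlap exons of *Pax5*, so without the strand setting their reads and those of *Pax5* may not have been told apart. The genes nearest to the *Pax5* pattern over the mice were the protocadherin gene *Pcdhac1*, at a root mean square difference of 0.476 on the log2 scale, and the homeobox gene *Evx2* (0.577). This measure grows with the spread of the gene itself, which was 1.30 for *Pax5*, 0.800 for *En1* and 0.536 for *En2* (SD of log2 CPM over 7 mice), so its size is not compared between members.

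*Pax8* (chr2:24420560-24475599, minus strand) had the same 3 high mice, at few reads. Controls A2, A4 and A6 had 13, 2 and 17 reads (0.539, 0.04996 and 0.621 CPM), and B1, B7, B8 and B9 had 5, 115, 97 and 81 reads (0.178, 1.78, 2.39 and 0.952 CPM). The 3 high cKO mice were above every control, and B1 fell between A4 and the other controls. A log2 fold change of 1.79 ± 0.87 SE was not called by edgeR (adjusted p = 0.190) or DESeq2 (adjusted p = 0.0999). At 2 reads in A4, counting error alone is 70.7% of that value.

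*Pax2* (chr19:44756045-44837871, plus strand), the earliest of the family in the embryo, did not share this order. It was at 0.622, 0.350 and 0.365 CPM in A2, A4 and A6, and at 0.427, 0.435, 0.838 and 0.341 CPM in B1, B7, B8 and B9. The groups overlapped, with B8 highest and B9 lowest. The log2 fold change of 0.20 ± 0.47 SE (edgeR adjusted p = 0.789) changed sign without B8, to -0.14.

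Of the 2 secreted signals, *Fgf8* (chr19:45736798-45742915, minus strand), the ligand that gives the boundary its organizer activity, was barely present. Controls A2, A4 and A6 had 0, 2 and 4 reads, and B1, B7, B8 and B9 had 0, 1, 0 and 0 reads. The highest level, in A6, was 0.146 CPM, and a count of 0 allows up to 0.124 CPM in A2, 0.107 in B1, 0.0739 in B8 and 0.0353 in B9. No difference was detectable at this depth. *Wnt1* (chr15:98789857-98793837, plus strand), the WNT ligand of the midbrain side, was at 0.747, 0.899 and 0.402 CPM in A2, A4 and A6, and at 0.214, 0.838, 0.517 and 0.470 CPM in B1, B7, B8 and B9. The ranges overlapped and B1 was lowest. Its log2 fold change was -0.40 ± 0.50 SE (edgeR adjusted p = 0.594), below 0 in each of the 17 settings that gave one, none of which called it.

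Further genes of the pathways of these signals were examined as lists. The FGF8 list held 17 genes: the ligand genes *Fgf17* and *Fgf18*, receptors, modulators, feedback inhibitors and targets. All 17 were tested and none was called by edgeR or DESeq2. The median log2 fold change was 0.18, and 4 had an unadjusted p under 0.05 with higher levels in cKO (*Fgfr1*, *Spred1*, *Spred2* and *Il17rd*, named after their values were seen) against none with lower, where 16.7% of all tested genes had such a p with cKO higher and 30.4% in either direction. The highest by mean CPM were *Spred1*, a feedback inhibitor, at 88.2 to 100 CPM in controls and 89.6 to 156 CPM in cKO, *Fgfr1* at 52.6 to 66.2 and 68.3 to 79.7 CPM, and *Fgfr3* at 45.0 to 54.1 and 45.9 to 65.3 CPM. *Fgfr1* was above every control in all 4 cKO mice, by a log2 fold change of 0.30 (edgeR adjusted p = 0.158), and the other two overlapped between genotypes.

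In the WNT1 list of 17 receptors, co-receptors, secretion factors, nuclear effectors and targets, all were tested and none was called by edgeR (median log2 fold change 0.16). At an unadjusted p under 0.05 edgeR held 4 with higher and 1 with lower levels in cKO, 5 of 17, a share close to the 30.4% of all tested genes in either direction (16.7% with cKO higher). DESeq2 called 3, all higher in cKO, against 7.41% of all genes. These were the receptor genes *Fzd3* (log2 fold change 0.99, DESeq2 adjusted p = 0.0294) and *Fzd6* (0.75, adjusted p = 0.0239) and the co-receptor gene *Lrp6* (0.87, adjusted p = 0.0356). All 3 calls were kept without B8, in a DESeq2 fit that called 39.9% of all genes, and all 3 were lost when any other mouse was left out (fits that called 2.95% without A2, 0.0612% without A4, 0.982% without A6, 0.689% without B1, 0.362% without B7 and 0.29% without B9). *Fzd3* was at 106, 83.1 and 88.0 CPM in A2, A4 and A6, and at 181, 246, 89.6 and 218 CPM in B1, B7, B8 and B9. Here B8 was the cKO mouse within the control range and B1 was among the high mice, unlike the order seen for *En1*, *En2*, *Pax5* and *Pax8*. *Lrp6* had that order too, at 34.1 to 42.6 CPM in controls, 39.2 CPM in B8 and 72.4 to 92.2 CPM in the other cKO mice. *Fzd6* did not: it was at 6.10, 5.52 and 4.27 CPM in A2, A4 and A6, and at 8.55, 9.23, 7.46 and 10.4 CPM in B1, B7, B8 and B9, with every cKO mouse above every control. *Ctnnb1*, which encodes beta-catenin, had the highest CPM of the list, at 425 to 478 CPM in controls and 423 to 603 CPM in cKO, followed by the nuclear effector *Tcf7l2* at 230 to 260 and 239 to 464 CPM.

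*Lmx1b* encodes a LIM homeodomain factor needed for *Fgf8* at the boundary and later for serotonergic neurons (chr2:33560965-33640511, minus strand). It was at 4.23, 1.62 and 2.67 CPM in controls A2, A4 and A6, and at 3.13, 3.86, 6.28 and 3.49 CPM in B1, B7, B8 and B9. Only B8 lay above the controls, and the other 3 cKO mice fell between A6 and A2. The log2 fold change was 0.57 ± 0.37 SE (edgeR adjusted p = 0.292), between 0.28 and 0.97 when single mice were left out, and never called. Levels of the neighbour C130021I20Rik, which starts upstream on the opposite strand (chr2:33641193-33646354), were 7.34, 4.25 and 5.44 CPM in A2, A4 and A6, and 6.41, 7.36, 12.49 and 4.996 CPM in B1, B7, B8 and B9. B8 was again the highest mouse and A4 the lowest.

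The summed serotonergic markers were highest in the same mouse, though not each of them. The 6 markers listed for these neurons summed to 33.9 to 53.1 CPM in controls, 40.9 to 58.6 CPM in B1, B7 and B9, and 107 CPM in B8, and none of the 6 was called by edgeR or DESeq2 or had an unadjusted edgeR p under 0.05. *Slc6a4*, the serotonin transporter, was at 11.2, 1.72 and 3.47 CPM in A2, A4 and A6, and at 4.10, 14.0, 47.9 and 2.57 CPM in B1, B7, B8 and B9. Its defining partners *Tph2* and *Fev* were also highest in B8, at 17.2 and 5.67 CPM, as was *Maob*, whereas *Gata2* was highest in B9 (13.6 CPM, with 11.8 CPM in B8) and *Htr1a* was lowest in B8 (15.9 CPM), and no marker was at 0 in any mouse. Among the 8 dopaminergic markers, which summed to 30.9 to 42.6 CPM in controls and 31.2 to 79.0 CPM in cKO, B8 had the highest sum as well, and *Pitx3* was at 0 in A2. B8 was likewise the highest mouse for *En1*, *Pax2* and *Pax8*, and the part of these marker levels in the members' values was not tested. Over the 7 mice, the genes nearest in pattern to *Lmx1b* were *Slc5a7*, which encodes the choline transporter, at 0.226 and *Iqub* at 0.260.

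**Figure D3:**
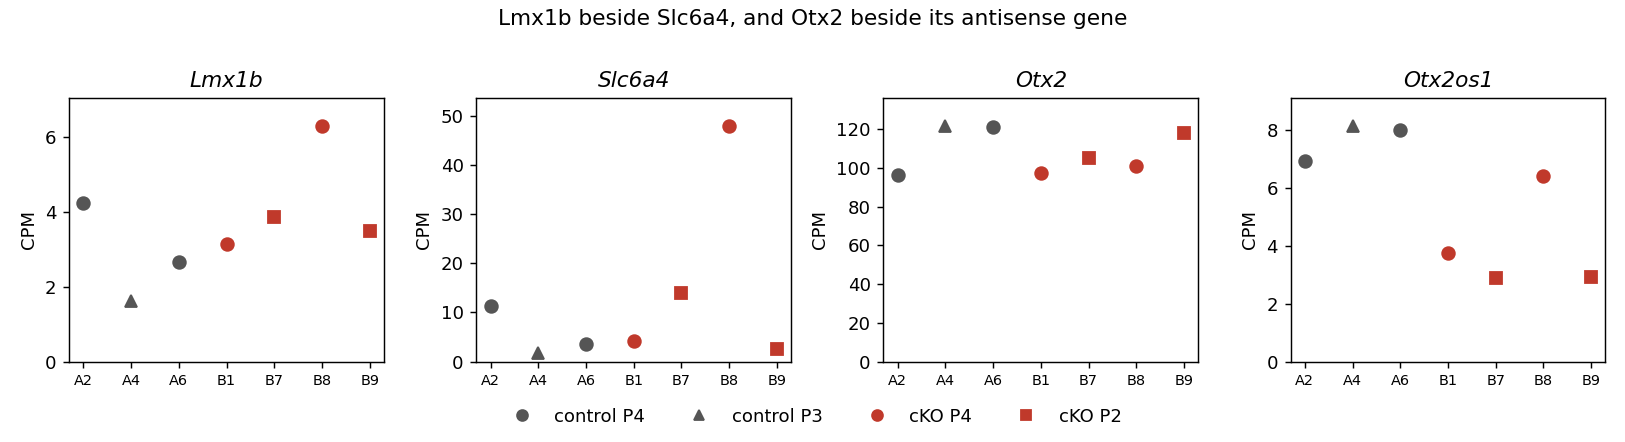
CPM (y axis, linear, from 0) of Lmx1b, the serotonin transporter gene Slc6a4, Otx2 and its antisense gene Otx2os1 in each mouse (x axis), coloured by genotype and shaped by age. B8 is the highest mouse for Lmx1b (6.28 CPM) and Slc6a4 (47.9 CPM), and all 4 cKO mice lie below the controls for Otx2os1 but not for Otx2.

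Set side by side, 4 of the 8 tested members, *En1*, *En2*, *Pax5* and *Pax8*, were higher in B7, B8 and B9 than in each of the other 4 mice. This split of the mice was noticed in the members' values, so it is a description with no test, and 1.5% of all tested genes show it. Relative to the median control, B7 was 1.62-fold for *En1*, 1.78-fold for *En2*, 5.56-fold for *Pax5* and 3.31-fold for *Pax8*. B8 was 3.71-, 1.80-, 2.84- and 4.43-fold for the same genes, and B9 was 2.34-, 2.17-, 3.48- and 1.77-fold. The 3 mice therefore differed in which gene stood out, *Pax5* in B7 and B9 and *Pax8* and *En1* in B8. B1 was at 0.836, 0.882, 1.34 and 0.330 times the median control. B7 and B9 were the P2 mice and the deepest libraries, B8 was P4 at a depth within the range of the controls, and age and depth cannot be told apart from genotype in B7 and B9.

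**Figure D4:**
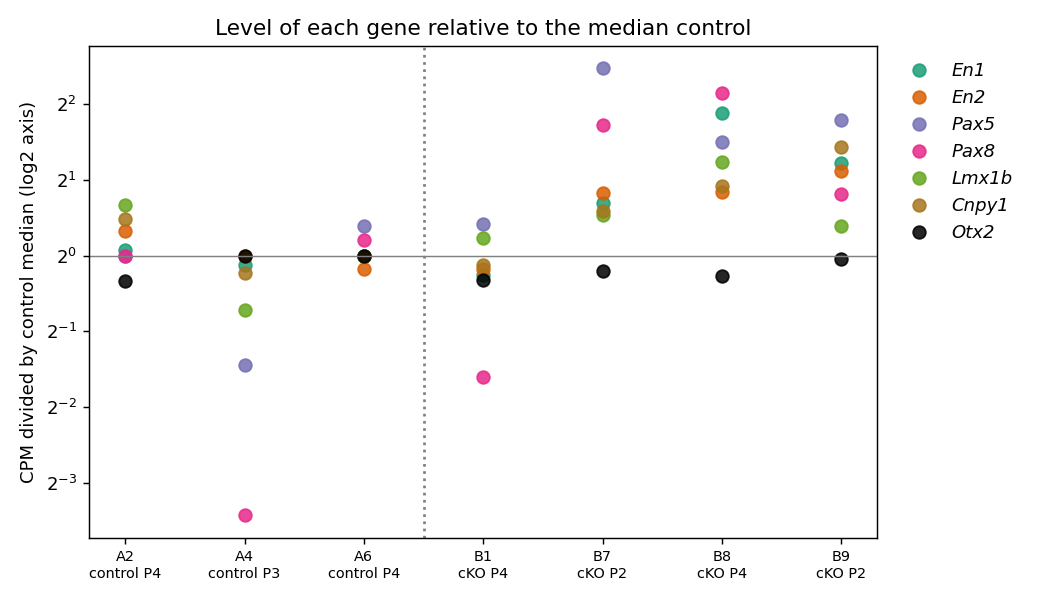
CPM of 6 boundary genes and of Cnpy1 divided by the median of the 3 controls (y axis, log2 scale) in each mouse (x axis, with genotype and age), with a dotted line between genotypes. En1, En2, Pax5 and Pax8 lie above 1 in B7, B8 and B9, while in B1 only Pax5 of these 4 does, at 1.34, and Otx2 (black) stays close to 1 in all mice.

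Levels of different genes were compared per kilobase of merged exons, as the mean of 7 mice. *Otx2* stood first at 25.8 ± 2.68 CPM per kb (SD, n = 7), and its lowest mouse was above the highest mouse of every other member. *En2* followed at 4.98 ± 1.85, then *Pax5* at 2.21 ± 1.76, *En1* at 2.08 ± 1.34 and *Lmx1b* at 0.740 ± 0.298 CPM per kb. *Wnt1* (0.246), *Pax8* (0.154), *Pax2* (0.0892), *Gbx2* (0.0848) and *Fgf8* (0.0224 CPM per kb) came last. From *En2* downwards the range of each gene over the mice overlapped that of the next. Within single mice, *En2* exceeded *Pax5* per kb in 7 of 7 and *En1* exceeded *Lmx1b* in 7 of 7, while *Pax5* exceeded *En1* in 4 of 7 and *Pax8* exceeded *Pax2* in 4 of 7. The order also differed between the genotype means: *En1* was above *Pax5* in controls (1.25 and 0.869 CPM per kb) and below it in cKO (2.69 and 3.22 CPM per kb). In controls *Gbx2* (0.113 CPM per kb) was above *Pax2* (0.0824) and *Pax8* (0.0666), and in cKO it was below both (0.0639, against 0.0943 and 0.219 CPM per kb). *Wnt1* was above *Pax8* in controls (0.287 and 0.0666 CPM per kb) and just below it in cKO (0.214 and 0.219 CPM per kb).

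The pattern of *Otx2* was shared to within small errors by *Dmbx1*, a homeobox gene of the midbrain, at a root mean square difference of 0.0293 on the log2 scale, and by *Pdzrn4* at 0.0392. *Dmbx1* was at 41.2, 50.8 and 49.7 CPM in A2, A4 and A6, and at 39.0, 43.7, 40.9 and 48.4 CPM in B1, B7, B8 and B9, with A2, B1 and B8 low in both genes. *Otx2* itself varied by only 0.150 (SD of log2 CPM over 7 mice).

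Of 24 partner factors of the boundary (further Otx, Gbx, Pax, Irx, Pbx, Meis, Hes and ventral genes), 22 were tested. None was called by edgeR, and the median log2 fold change was 0.11. At an unadjusted p under 0.05 edgeR held 3 with higher and 2 with lower levels in cKO, 5 of 22, a smaller share than the 30.4% of all tested genes in either direction (16.7% with cKO higher). DESeq2 called 2, both higher in cKO, against 7.41% of all genes: *Six3*, an anterior neural homeobox gene, and *Otx1*, the paralog of *Otx2*. *Six3* was at 13.3, 10.9 and 15.1 CPM in A2, A4 and A6, and at 12.3, 36.0, 25.6 and 35.2 CPM in B1, B7, B8 and B9. B7, B8 and B9 were again the high mice and B1 lay within the controls (log2 fold change 1.06, DESeq2 adjusted p = 0.0321). *Otx1* was at 5.81, 3.72 and 4.16 CPM in A2, A4 and A6, and at 5.81, 8.68, 7.14 and 8.02 CPM in B1, B7, B8 and B9 (0.71, DESeq2 adjusted p = 0.0457). With single mice left out, DESeq2 called *Six3* only without B1 and *Otx1* only without A2 or without B8. Among the partners with high CPM were the TALE homeobox genes *Meis2*, at 143 to 164 CPM in controls and 144 to 251 CPM in cKO, and *Pbx3*, at 146 to 165 CPM in controls and 139 to 184 CPM in cKO, both overlapping between genotypes.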

How the data were processed

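Poly(A) RNA of dorsal midbrain was sequenced in 100 bp paired-end reads from strand-specific libraries. Per the methods and the labels, the authors trimmed the reads, used TopHat2 over Bowtie 2 for alignment (build GRCm38.p5), and deposited raw read counts per gene from HTSeq on GENCODE vM15. The strand and overlap options of HTSeq are not given in the sources used here. Rows that name no gene held 31.0% to 38.2% of each file and were left out. Symbols and positions came from GENCODE vM21 on the same build (52489 of 52636 identifiers matched), and promoter sequences from RefSeq (GRCm38.p6).

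Counts were filtered with filterByExpr (minimum count 10, minimum total 15), scaled by TMM and tested with edgeR 4.0.16 (R 4.3.3), controls against cKO, by the quasi-likelihood test with Benjamini-Hochberg adjustment over all 21817 genes, called under 0.05. CPM values are TMM-scaled. DESeq2 1.42.0 and limma-voom 3.58.1 with sample quality weights were alternatives, as were RLE factors, other filters, thinning to the smallest library, age as a covariate, subsets by age and leaving out each mouse. Single genes also got an exact two-sided permutation test of log2 CPM. The edgeR script was tested on simulated data. The methods describe the 7 libraries as independent replicates. Named genes were the members and *Pou4f2*, genes overlapping or starting within 5 kb of a member, the called and the 3 genes of highest mean CPM of each pathway list, the 2 genes nearest in pattern to each member at 1 CPM or more, and markers beside a member's result. Members, lists and motifs were chosen with earlier results of these data known. Some genes under the naming rule are not reported here.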

Additional observations from a re-analysis of the deposited data

Results flagged for a closer look

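Dixon's test for a value far from the others was run in the 4 cKO mice on 23 items, the members, *Pou4f2* and the summed levels of the gene lists, and chance alone marks about 1 in 20. It marked 1 item, *Fgf8* in cKO mouse B7. The value rests on 1 read in B7 against 0 reads in B1, B8 and B9.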

How the results depend on the processing

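By edgeR 1 gene, no member and no pathway list gene was called in all 7 mice. RLE factors, both other filters, thinning, age as a covariate and the P4 cKO mice against controls gave the same counts. DESeq2 called 1994 genes, 1 member and 5 pathway genes, and limma-voom with sample weights called 10583, 2 and 29. The P2 cKO mice against controls gave 10425, 3 and 28. P4 mice only gave 0 genes. Leaving out each mouse gave 1 to 9867 genes, 0 to 1 members and 0 to 26 pathway genes by edgeR, where the highest counts came without B8. By DESeq2 this gave 12 (without A4) to 9951 (without B8) genes, 0 to 3 members (3 without B1; 0 without A4, B7 or B9) and 0 to 25 pathway genes (without B8). The cause was not tested. The members' median log2 fold change lay between 0.42 (P4 only) and 0.89 (without A2). *Pax2* reversed to -0.0989 with limma-voom, -0.203 with the P2 cKO mice and -0.144 without B8 (-0.144 to 0.496 with single mice left out), and no other member changed sign. No paired analysis was made, because the labels name no litter or pair that ties a control to a cKO mouse. *Fgf8* (7 reads in all) and *Gbx2* (61) were too few for a comparison.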
